A study of Mus musculus with 16 samples.

Results

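The genes described here are the receptor Ptprz1, its ligands Ptn and Mdk, the matrix proteoglycan Vcan and the 4 syndecans Sdc1 to Sdc4, 8 genes of the 15805 in the deposited count table. Ptprz1 was chosen because its level differed between treated and control explants in these same data, so its difference is described and not tested. The other 7 were chosen because their proteins are known to bind Ptprz1 or its ligands. RNA was sequenced from 16 primary explants of epicardium, the outer cell layer of the heart, 8 cultured with blebbistatin and 8 controls without it. Blebbistatin blocks the motor activity of myosin II. All explants came from C57BL6 mice and grew on a collagen gel, and the treated ones received blebbistatin at a dose given as 20, in a unit written as mM in one place and mm in another. Neither the age of the mice, how many mice gave the explants, the time in culture nor whether controls received the solvent is given in the sources used here, so p-values measure the spread between explants.

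Ptprz1 encodes a receptor tyrosine phosphatase that spans the membrane and carries chondroitin sulfate chains outside the cell. When the secreted growth factors pleiotrophin (Ptn) or midkine (Mdk) bind these chains and the protein core, the phosphatase is inactivated and phosphorylation of its substrates increases. Both ligands also bind heparan sulfate, the sugar chain that syndecans carry, and Sdc3 is a known receptor for pleiotrophin. Versican (Vcan) is a large chondroitin sulfate proteoglycan of the matrix that binds hyaluronan and is needed for the endocardial cushions of the embryonic heart. The family is best known from glia and the growth of nerve fibres, and Ptprz1 also gives a secreted splice form, phosphacan. Counts per gene do not separate such splice forms.

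The promoters of the receptor and of the ligand with the largest difference are shown because in all treated explants Ptprz1 was below and Ptn above the control median. They are RefSeq sequences of build GRCm38.p6, from 250 bases before to 50 bases after the start of transcription, and 6 of the 8 genes had an entry. Capitals mark the letters GGGCGG, which factor SP1 binds, or their reverse complement.
Ptprz1 (chr6:22875252-22875551, plus strand): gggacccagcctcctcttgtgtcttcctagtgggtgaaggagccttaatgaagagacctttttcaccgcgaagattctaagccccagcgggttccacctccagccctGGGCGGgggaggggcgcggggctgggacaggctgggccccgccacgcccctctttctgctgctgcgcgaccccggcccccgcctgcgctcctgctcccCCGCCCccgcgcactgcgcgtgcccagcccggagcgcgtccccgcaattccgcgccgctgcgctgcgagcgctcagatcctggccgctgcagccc
Ptn (chr6:36810130-36810429, minus strand): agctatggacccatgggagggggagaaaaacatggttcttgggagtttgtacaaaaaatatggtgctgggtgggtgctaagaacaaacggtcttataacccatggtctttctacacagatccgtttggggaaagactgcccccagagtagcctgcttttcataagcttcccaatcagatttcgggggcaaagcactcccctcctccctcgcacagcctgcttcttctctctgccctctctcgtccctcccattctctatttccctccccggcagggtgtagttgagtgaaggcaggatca
The Ptprz1 window is 71.7% G and C and the Ptn window 52%. Both strands were searched for GGGCGG (in 35.7% of 32851 promoters of this length), the TEAD motif GGAATG (14.7%), the AP-1 motif TGANTCA (7.81%), the TATA box TATAAA (13.6%) and the CArG box of serum response factor (1.63%). Ptprz1 held 2 GGGCGG matches and none of the other motifs, Ptn held none of the 5, and no matches overlapped.

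Total counts were 20176386 to 89620195 in blebbistatin libraries and 27065611 to 60321622 in controls. Mitochondrial genes took 16.8% to 25.5% of the counts with blebbistatin and 13.8% to 18.9% in controls. Genes of the Y chromosome summed to over 10 CPM (counts scaled to a common library total) in 5 of the 8 treated explants and in 2 of the 8 controls, and 1 of those controls, control 5, also had Xist, which is made from inactive X chromosomes, at 342 CPM. All 14 epicardial and mesothelial markers were in the table, at a sum of 2203 to 5971 CPM in treated explants and 3306 to 7304 CPM in control explants. Tcf21 had a higher mean in treated explants (67.8 CPM, against 61.6 CPM in controls). Every other marker of this list had a lower one, such as Lrrn4 (1032 and 1535 CPM) and Krt19 (11.9 and 30.6 CPM), and none was called by edgeR. Of 10 glial markers 4 were in the table and the others were not analysed here; their sum was 42.2 to 98.3 CPM in treated explants and 45.5 to 94.3 CPM in control explants, most of it Mbp. Of 8 neuronal markers 2 were in the table, at a sum of 1.67 to 9.32 CPM in treated explants and 1.66 to 6.55 CPM in control explants. Cardiomyocyte markers (6 of 10 in the table) summed to 651 to 1214 CPM in treated explants and 410 to 1022 CPM in control explants. Tnnt2 made up most of this, at a mean of 859 CPM in treated and 549 CPM in control explants. Only 1 of them, Ttn, was called, and it rose (48.2 ± 21.9 CPM in treated and 15.5 ± 12.1 CPM in control explants, log2 fold change 1.64, edgeR adjusted p = 0.0464). Myh6 and Ryr2 also had a higher mean in treated explants. Myl7 (77.3 CPM in treated and 92.5 CPM in control explants) and Actc1 had a lower one. Myh6 and Actc1 were at 0 CPM at the lowest in both groups. Macrophage markers (10 of 10 in the table) summed to 229 to 3237 CPM in treated explants and 292 to 4277 CPM in control explants. Most of the mean sum was Lyz2, at a mean of 714 CPM in treated and 988 CPM in control explants. C1qa also had a lower mean in treated explants, and the other macrophage markers had a higher one, such as Cd68 (171 and 105 CPM). Endothelial markers (3 of 8) summed to 15.1 to 51.4 CPM in treated and 30.0 to 62.1 CPM in control explants, and those of fibroblasts and mural cells (9 of 10) to 4203 to 12124 CPM in treated and 7860 to 11734 CPM in control explants. The single erythroid gene of 6 stood at 0.431 to 6.60 CPM in treated and 0.776 to 5.80 CPM in control explants. No gene of these lists that was in the table was at 0 in a whole group, and apart from fits with the macrophage marker level as a covariate, given beside Ptprz1 and Ptn, the part of these cell types in the results was not tested. In bulk RNA, fewer cells of a type and less RNA per cell cannot be told apart.

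Ptprz1 (ENSMUSG00000068748, build GRCm38, chromosome 6, 22875502 to 23052916, plus strand) was lower with blebbistatin in every explant. Its level, in CPM scaled for library composition (TMM), was 10.9 CPM at the lowest, 29.0 CPM at the median and 43.8 CPM at the highest with blebbistatin, against 55.9, 91.5 and 181 CPM in controls. The groups did not overlap: the highest treated explant, blebbistatin 6, lay below the lowest control, control 6. The mean was 29.8 ± 10.6 CPM in treated explants and 94.97 ± 39.6 CPM in control explants (SD, n = 8 each), 3.19-fold lower with blebbistatin (log2 fold change, blebbistatin over control, −1.67, SE 0.26, 95% interval −2.22 to −1.13). This is the value that chose the gene. Groups did not overlap for 0.242% of all tested genes.

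Among libraries with over 10 CPM of Y-linked genes, Ptprz1 was at 23.6 to 43.8 CPM in 5 treated explants and at 67.3 and 97.9 CPM in 2 controls. Among the rest it was at 10.9 to 41.2 CPM in 3 treated explants and 55.9 to 181 CPM in 6 controls. With the Y-linked level as a covariate the log2 fold change was −1.70, with the macrophage marker level −1.68, and after removal of blebbistatin 1 and 8, the libraries with the smallest number of detected genes, −1.61.

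Ptn (ENSMUSG00000029838, chromosome 6, 36714929 to 36810220, minus strand) had 41.7 CPM at the lowest, 89.7 CPM at the median and 301 CPM at the highest with blebbistatin, against 15.1, 38.3 and 89.2 CPM in controls. All 8 treated explants lay above the control median and 4 above the highest control, while the other 4 were within the control range. Blebbistatin 3 and 6 stood apart from the other 6 treated explants at 289 and 301 CPM, where the next was at 104 CPM. The mean was 132 ± 102 CPM in treated explants and 47.6 ± 26.3 CPM in control explants (SD, n = 8 each). The log2 fold change was 1.47 (SE 0.41, 95% interval 0.61 to 2.33), and it did not pass edgeR over all genes (adjusted p = 0.107). It passed with DESeq2 (adjusted p = 0.0453) and with the macrophage markers as a covariate chosen after seeing the data (adjusted p = 0.00694). It did not pass in 24 of 27 alternatives, among them all 16 that left out 1 library. With the Y-linked covariate it was 1.16 (adjusted p = 0.492). In libraries with over 10 CPM of Y-linked genes Ptn was at 68.3 to 301 CPM in 5 treated explants and 33.0 and 34.7 CPM in 2 controls. In the others it was at 41.7 to 104 CPM in 3 treated explants and 15.1 to 89.2 CPM in 6 controls, with overlap. With only 2 controls in the first set, whether the Ptn difference varied with the Y-linked level was not tested.

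Mdk (ENSMUSG00000027239, chromosome 2, 91929805 to 91932297), the other ligand, had 9.85 CPM at the lowest, 27.1 CPM at the median and 53.6 CPM at the highest with blebbistatin, against 18.7, 31.6 and 47.2 CPM in controls. Of the treated explants 6 lay within the control range, with blebbistatin 5 below it and blebbistatin 1 above it. The mean was 29.3 ± 12.7 CPM in treated explants and 31.6 ± 8.56 CPM in control explants. The log2 fold change of −0.11 (SE 0.25) did not pass edgeR (adjusted p = 0.892), and its 95% interval ran from −0.63 to 0.42. Whether the 2 ligands differed in their response was not tested.

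**Figure D1:**
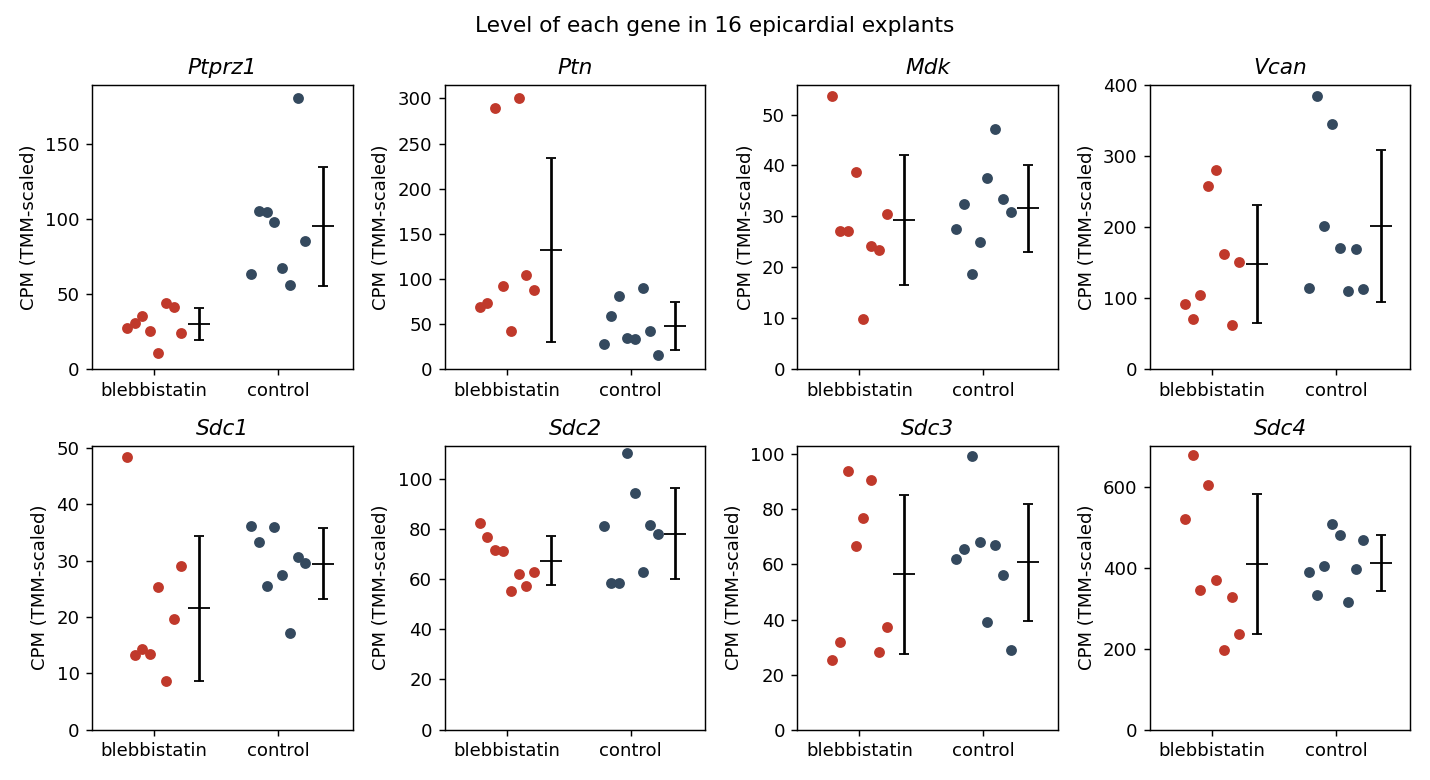
TMM-scaled CPM (linear axis from 0) of the 8 genes in each of 16 explants, blebbistatin left and control right in each panel; points are explants 1 to 8 from left to right, and the bar beside them is mean ± SD. The blebbistatin points of Ptprz1 lie between 10.9 and 43.8 CPM, all below the controls, and all other panels overlap.

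Ligand and receptor were set side by side per length, as RPKM (CPM per kilobase of exon). Ptn exceeded Ptprz1 by 9.84 times at the lowest, 15.2 at the median and 34.2 at the highest with blebbistatin, against ratios of 0.735, 1.91 and 6.62 in controls. The ratios did not overlap between groups, and 2 controls, 7 and 8, had more Ptprz1 than Ptn. The Mdk to Ptprz1 ratio was 5.92 at the lowest, 9.58 at the median and 21.3 at the highest with blebbistatin and 1.92, 3.61 and 9.09 in controls, and 3 treated explants lay within the control range. These ratios contain the Ptprz1 value that chose the gene and are not tested. The Ptn to Mdk ratio, which does not contain it, was above 1 in 6 of 8 treated explants and 1 of 8 controls. Its median was 1.37 with blebbistatin and 0.510 in controls, and 5 treated explants lay within the control range of 0.188 to 1.67.

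**Figure D2:**
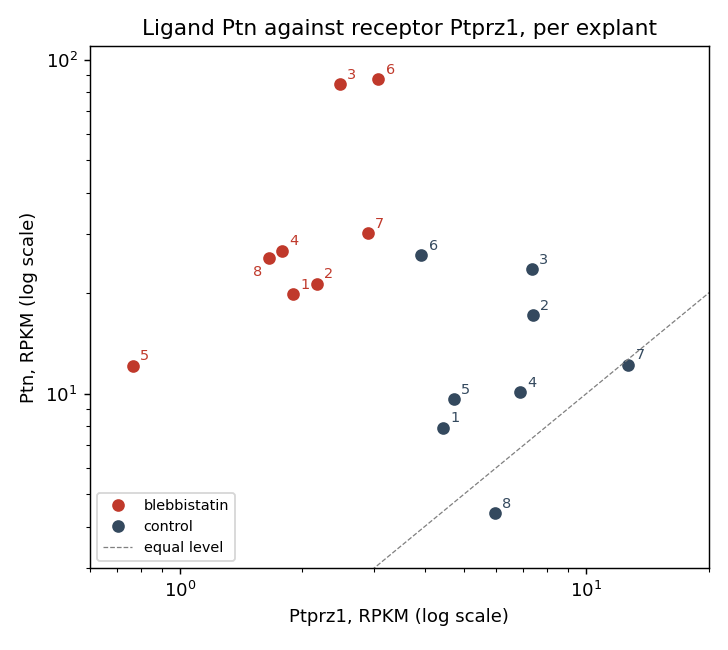
Ptn against Ptprz1 in RPKM, both axes logarithmic, each point an explant with its replicate number, blebbistatin in red and control in dark blue; the dashed line marks equal levels. Treated explants lie to the left, with Ptn 9.84 to 34.2 times Ptprz1, and controls lie at 0.735 to 6.62 times.

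Within a group, no relation between Ptprz1 and the other 7 genes passed a test. Of 14 relations on log2 CPM (7 genes in each group of 8 explants), 0 passed after Benjamini-Hochberg adjustment in an exact 2-sided permutation test over all pairings. The lowest p was that of Ptn among treated explants (Pearson r = 0.75, exact permutation p = 0.0271, adjusted 0.38; Spearman rank correlation 0.79, exact permutation p = 0.0279, adjusted 0.391). Without the 2 explants farthest from the Ptprz1 median r over the remaining 6 was 0.46 (exact permutation p = 0.383), a narrower range of Ptprz1 and fewer explants. Among controls Ptn had r = 0.04 (exact permutation p = 0.932, adjusted 0.989) and a Spearman rank correlation of 0.17 (exact permutation p = 0.703, adjusted 0.882). Without the 2 controls farthest from the Ptprz1 median, r over the remaining 6 was 0.56 (exact permutation p = 0.25). Whether Ptn differed between the groups in this relation was not tested. Vcan had r = −0.64 with blebbistatin (exact permutation p = 0.0721, adjusted 0.505) and r = 0.45 in controls (exact permutation p = 0.261, adjusted 0.73), and the difference between these was not tested.

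Over the 16 explants, after removal of each group's mean, the 5 genes with the highest Pearson r with Ptprz1 among 8036 protein-coding genes of at least 10 CPM were Atxn1 (0.77), Dop1a (0.76), Mark2 (0.75), Ubtd2 (0.74) and Mapre2 (0.74). The 5 lowest were Dysf (−0.80), Fam129b (−0.73), Grem1 (−0.71), Psma1 (−0.70) and Gxylt1 (−0.70). Each kept its sign in both groups, which the choice by r over both groups makes likely, and none was called between groups. Ptn had r = 0.45, and 4.17% of these genes had a higher one. The 10 genes with the highest and lowest r were picked from many and carry no test.

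Vcan (ENSMUSG00000021614, chromosome 13, 89655312 to 89742509) had 62.2 CPM at the lowest, 128 CPM at the median and 280 CPM at the highest with blebbistatin, against 110, 169 and 384 CPM in controls. Blebbistatin 4 and 5 (258 and 280 CPM) and controls 2 and 4 (384 and 346 CPM) were the highest, and 4 treated explants lay below every control. The log2 fold change was −0.45 (SE 0.33, 95% interval −1.14 to 0.25) and did not pass edgeR (adjusted p = 0.644).

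Sdc4 was the most abundant syndecan and the most abundant of the 8 genes per length. Its level was 196 CPM at the lowest, 357 CPM at the median and 678 CPM at the highest with blebbistatin, against 314, 401 and 509 CPM in controls. The means were nearly equal, 410 ± 173 CPM in treated and 412 ± 69.6 CPM in control explants, while 3 treated explants lay above and 2 below the control range. The log2 fold change was −0.01 (SE 0.21, 95% interval −0.45 to 0.44, edgeR adjusted p = 0.992). Sdc4 (ENSMUSG00000017009, chromosome 2, 164424247 to 164443887) encodes the syndecan of focal adhesions.

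Sdc2 (ENSMUSG00000022261, chromosome 15, 32920723 to 33034935) varied least among treated explants, from 55.2 to 82.4 CPM with a median of 67.0 CPM, against 58.6 to 110 CPM with a median of 79.6 CPM in controls. Of the treated explants 7 lay below the control median and 2 below the control range. Its log2 fold change was −0.21 (SE 0.14, 95% interval −0.51 to 0.08, edgeR adjusted p = 0.58).

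Sdc1 (ENSMUSG00000020592, chromosome 12, 8771323 to 8793715), the syndecan typical of epithelia, was at 8.56 to 48.4 CPM with a median of 17.03 CPM with blebbistatin and 17.2 to 36.2 CPM with a median of 30.1 CPM in controls. Of the treated explants 7 lay below the control median and 4 below every control, but blebbistatin 1 was the highest of all 16. The log2 fold change was −0.45 (SE 0.28, 95% interval −1.04 to 0.13, edgeR adjusted p = 0.555). Without blebbistatin 1 and 8 it was −0.91 (edgeR adjusted p = 0.089). These 2, left out by a choice made after seeing the data, were the treated explants with the most Sdc1 (48.4 and 29.1 CPM). Their removal therefore lowers the treated level.

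Sdc3 (ENSMUSG00000025743, chromosome 4, 130792537 to 130826319), the syndecan of nerve cells, was at 25.3 to 93.9 CPM with a median of 52.0 CPM with blebbistatin and 28.8 to 99.4 CPM with a median of 63.7 CPM in controls, with 6 treated explants inside the control range. Its log2 fold change was −0.11 (SE 0.29, 95% interval −0.72 to 0.50, edgeR adjusted p = 0.91). Exons of Sdc3 share 415 bases with the antisense gene Gm26716 and 48 with Gm12970. Without a stated strand setting and annotation, its counts may include reads of these genes or lack reads from the shared bases.

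**Figure D3:**
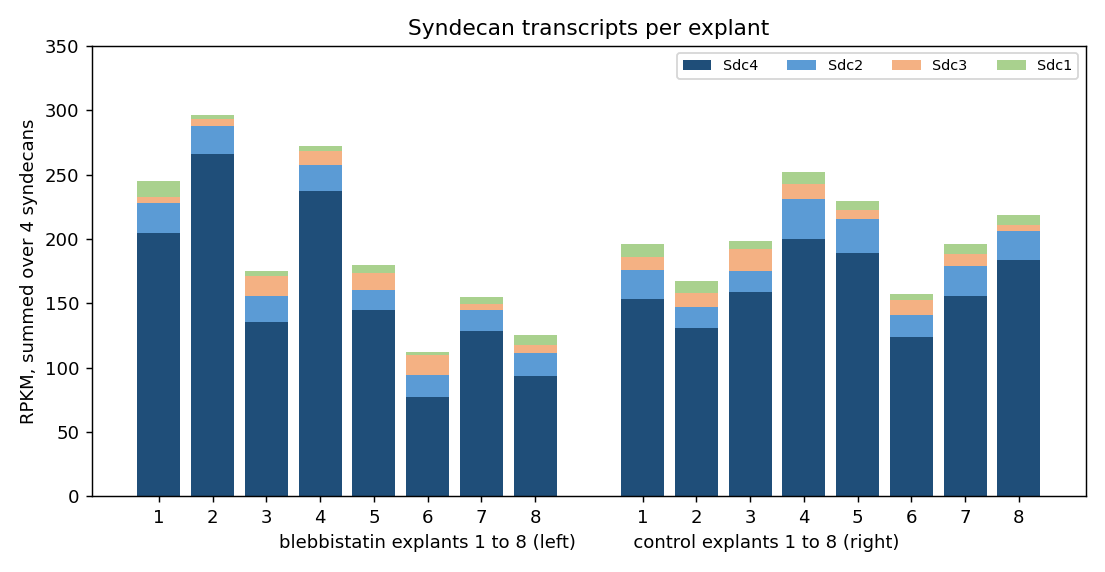
RPKM of the 4 syndecans stacked per explant (linear axis from 0), blebbistatin explants 1 to 8 left and control explants 1 to 8 right. The sum runs from 112 to 297 RPKM with blebbistatin and from 157 to 252 RPKM in controls, and Sdc4 is the largest block in every explant.

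Summed per length, the syndecans stood at 195 ± 68.5 RPKM with blebbistatin and 202 ± 31.3 RPKM in controls. Sdc4 made up 68.7% to 89.7% of that sum with blebbistatin and 78.1% to 84.1% in controls. Sdc2 held 7.34% to 15.7% in treated explants and 8.36% to 12.4% in controls. Sdc3 held 1.72% to 13.6% in treated explants and 2.2% to 8.36% in controls, and Sdc1 1.18% to 6.12% in treated explants and 2.88% to 5.22% in controls. For each syndecan treated explants lay on both sides of the control range.

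Per length, the order with blebbistatin was Sdc4 (161 RPKM), Ptn (38.5), Mdk (22.1), Sdc2 (19.1), Vcan (10.2), Sdc3 (9.42), Sdc1 (5.65) and Ptprz1 (2.09). In controls it was Sdc4 (162 RPKM), Mdk (23.8), Sdc2 (22.2), Vcan (13.9), Ptn (13.9), Sdc3 (10.1), Sdc1 (7.74) and Ptprz1 (6.67). Neighbours differed by more than the larger SD of the pair for Sdc4 with the next gene and Sdc2 with Vcan in both groups, and for Sdc1 with Ptprz1 with blebbistatin. All other neighbours did not. The explant-to-explant variation in the fit (biological coefficient of variation) was highest for Ptn at 55.1% and lowest for Sdc2 at 21.1%, and 35.9% for Ptprz1.

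By edgeR 1 of the 8 genes was called at an adjusted p under 0.05, Ptprz1, which this contrast chose, against 0.606% of all 15675 tested genes. At an unadjusted p under 0.05 there were 2 of 8, Ptprz1 and Ptn, against 12.2% of all genes. All 8 were tested. The median log2 fold change of the 8 was −0.16, against 0.04 for all tested genes. Of the 8, 7 were negative, against 7200 of the 15675, and they include Ptprz1, chosen for being lower, and Sdc4, Sdc3 and Mdk, whose signs turned in 10, 2 and 1 of 27 alternatives.

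**Figure D4:**
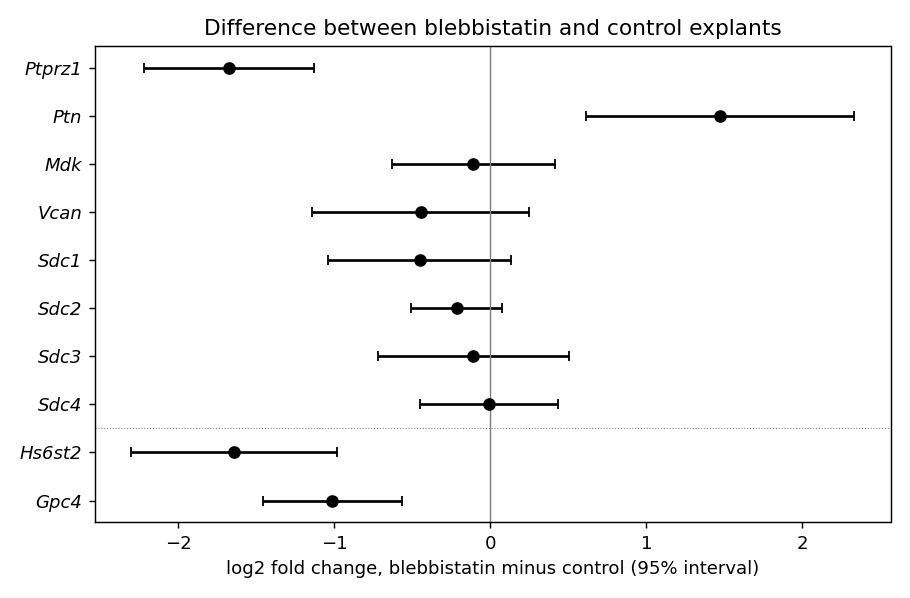
Log2 fold change, blebbistatin minus control, with its 95% interval from the edgeR fit, for the 8 genes (above the dotted line) and the 2 related genes that were called (below it). Ptprz1 was chosen for this contrast, and Hs6st2 and Gpc4 are shown because they were called, so their intervals exclude 0 by choice. The interval of Ptn does not contain 0, but Ptn did not pass after adjustment over all genes.

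Other genes of the pathway came from 10 lists with 143 genes, of which 119 were tested. By edgeR 2 fell and 0 rose, against 0.351% and 0.255% of all genes. The 2 were Hs6st2 and Gpc4, a heparan sulfate enzyme and a heparan sulfate proteoglycan. The median log2 fold change over the 119 was −0.07. At an unadjusted p under 0.05 there were 28 of the 119, 8 higher and 20 lower, against 1911 of all 15675 genes (12.2%), 973 higher and 938 lower; each count at this p in the lists below is to be read against that share. DESeq2 called 7 of the 119, against 424 of all genes. They were Hs6st2, Gpc4, Itgb1, Sulf1, Csgalnact2 and Adamts4 as lower and Tgfbr3 as higher. The same 2 as with edgeR were called by limma voom, against 113 of all genes, where edgeR called 95. Where a list below has 0 calls by edgeR, DESeq2 and voom made none beyond those.

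Of 18 tested enzymes that build and edit heparan sulfate 1 fell, 0 rose and 17 did not pass, with a median log2 fold change of −0.11. The gene that fell was Hs6st2, a sulfotransferase that puts sulfate on the carbon-6 position of glucosamine in the chain (chromosome X, 51387212 to 51681856). It was at 6.76 CPM at the lowest, 17.1 CPM at the median and 43.3 CPM at the highest with blebbistatin, against 28.2, 63.1 and 84.9 CPM in controls. All 8 treated explants lay below the control median, and the groups overlapped because blebbistatin 5 lay above controls 2 and 6. Its log2 fold change was −1.64 (SE 0.32, edgeR adjusted p = 0.0198), and the call ended with the Y-linked covariate (−1.60, adjusted p = 0.0672). In libraries with over 10 CPM of Y-linked genes it was at 6.76 to 22.7 CPM in 5 treated explants and at 66.6 and 84.9 CPM in 2 controls. In the others it was at 10.1 to 43.3 CPM in 3 treated explants and 28.2 to 83.2 CPM in 6 controls. Sulf1, which removes such sulfate groups outside the cell, had a log2 fold change of −0.54 (edgeR adjusted p = 0.0792) and was below the control median in 8 of 8. Extl3, a starter of the chain, had 0.35 (adjusted p = 0.214) and the sulfotransferase Hs3st3b1 −0.85 (adjusted p = 0.225).

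Of 8 tested heparan sulfate proteoglycans other than syndecans 1 fell, 0 rose and 7 did not pass, with a median of −0.15. Gpc4, a glypican anchored to the membrane by a lipid (chromosome X, 52053021 to 52165252), was at 20.8 CPM at the lowest, 23.6 CPM at the median and 51.5 CPM at the highest with blebbistatin, against 24.7, 60.5 and 68.9 CPM in controls. All 8 treated explants lay below the control median, and blebbistatin 1, 5 and 7 lay above the lowest control, control 6. The log2 fold change was −1.01 (SE 0.21, edgeR adjusted p = 0.0315). The call held without blebbistatin 1 or 5 or control 5 or 6 and ended, at adjusted p of 0.0529 to 0.0737, without each of the other 12 libraries, and with the Y-linked covariate (−0.99, adjusted p = 0.13). In libraries with over 10 CPM of Y-linked genes Gpc4 was at 20.8 to 51.5 CPM in 5 treated explants and 43.7 and 61.8 CPM in 2 controls, and in the others at 22.2 to 30.3 CPM in 3 treated explants and 24.7 to 68.9 CPM in 6 controls. Tgfbr3, the co-receptor betaglycan, had a log2 fold change of 0.97 (edgeR adjusted p = 0.139) with 8 of 8 treated explants above the control median. Hspg2, perlecan of the basement membrane, had −0.44 (adjusted p = 0.233) and Gpc1 −0.91 (adjusted p = 0.279).

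Of 13 tested enzymes of chondroitin and dermatan sulfate, the chains that Ptprz1 and versican carry, 0 passed and 5 had an unadjusted p under 0.05 (12.2% of all genes did), with a median of −0.19. Csgalnact2, which starts the chain, stood at 22.4 ± 7.29 CPM in treated explants and 39.3 ± 9.22 CPM in control explants (log2 fold change −0.81, SE 0.20, edgeR adjusted p = 0.0601), below the control median in 8 of 8. Its adjusted p ran from 0.0052 to 0.257 over 27 alternatives. The sulfotransferases Chst12 and Chst15 had −0.66 (adjusted p = 0.256) and 1.29 (adjusted p = 0.292). The Chst15 value rests on blebbistatin 8, without which it was 0.45 (adjusted p = 0.692), and the Chst15 medians were 4.83 CPM in treated explants and 4.04 CPM in controls. Of 7 enzymes of the sugar linkage common to both chains 0 passed edgeR and 0 had an unadjusted p under 0.05, with a median of 0.03. Those of smallest p were Pxylp1 (0.72, adjusted p = 0.497), B3galt6 (−0.37, adjusted p = 0.643) and B4galt7 (−0.19, adjusted p = 0.777). Without blebbistatin 1 Pxylp1 was at 0.25 (edgeR adjusted p = 0.79), and its medians were 2.53 CPM in treated explants and 2.42 CPM in controls.

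Of 19 tested ligands, co-receptors and other receptors of Ptprz1, Ptn and Mdk 0 passed and 6 had an unadjusted p under 0.05 (12.2% of all genes did), with a median of −0.05. Itgb1, the beta chain of many matrix receptors, stood at 667 ± 90.6 CPM in treated explants and 912 ± 137 CPM in control explants (log2 fold change −0.45, SE 0.11, edgeR adjusted p = 0.0673). Il34, a cytokine that binds Ptprz1 as well as the receptor Csf1r, was low at 2.2 ± 2.0 CPM in treated and 0.285 ± 0.311 CPM in control explants, with 8 of 8 treated explants above the control median (2.93, SE 0.87, adjusted p = 0.137; 3.91 with limma voom, adjusted p = 0.107). Ncam1, a neural adhesion molecule, had −0.41 (adjusted p = 0.236). Alk and Ltk, receptor kinases linked to these ligands, were not analysed here.

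Of 9 tested substrates and scaffolds of Ptprz1 0 passed and 2 had an unadjusted p under 0.05, with a median of −0.03. The kinase Fyn had a log2 fold change of −0.72 (edgeR adjusted p = 0.174), the scaffold Magi1 −0.50 (adjusted p = 0.279) and Arhgap35, which encodes a GTPase-activating protein, 0.19 (adjusted p = 0.549). Of 17 other receptor tyrosine phosphatases 0 passed edgeR and 0 had an unadjusted p under 0.05, with a median of −0.01. Those of smallest p were Ptprf (−0.20, adjusted p = 0.592), Ptprm (−0.28, adjusted p = 0.672) and Ptprt (0.85, adjusted p = 0.721). Ptprt was low, at 1.24 ± 0.922 CPM in treated and 0.691 ± 1.04 CPM in control explants, and without control 3 its log2 fold change was 1.89 (adjusted p = 0.329). Ptprg, the closest relative of Ptprz1 and named after its value was seen, stood at 110 ± 30.3 CPM in treated explants and 119 ± 24.6 CPM in control explants (−0.11, 95% interval −0.45 to 0.22, edgeR adjusted p = 0.816).

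Of 12 tested relatives and partners of versican 0 passed and 2 had an unadjusted p under 0.05, with a median of 0.05. Fbln2, a matrix protein that binds versican, had a log2 fold change of −0.87 (edgeR adjusted p = 0.296), the hyaluronan synthase Has2 −0.93 (adjusted p = 0.378) and Tnfaip6, which links proteins to hyaluronan, −1.06 (adjusted p = 0.417). Of 6 proteases that cleave versican 0 passed and 2 had an unadjusted p under 0.05, with a median of −0.36: Adamts4 had −0.99 (adjusted p = 0.163), Adamts1 0.41 (adjusted p = 0.407) and Adamts15 −0.87 (adjusted p = 0.655). Adamts15 was low, at 0.612 ± 0.407 CPM in treated and 1.12 ± 1.44 CPM in control explants, and without control 7 its log2 fold change was −0.046 (adjusted p = 0.988). Of 10 partners and sheddases of syndecans 0 passed and 2 had an unadjusted p under 0.05, with a median of −0.16, and Actn4, which binds the tail of Sdc4, had −0.28 (adjusted p = 0.27), the protease inhibitor Timp3 −0.46 (adjusted p = 0.296) and the adaptor Gipc1 −0.27 (adjusted p = 0.607).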

How the data were processed

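The authors deposited a table of read counts per gene, one column per explant; its whole numbers and unequal column totals show that it is not normalized. The tools listed per the submitters' processing notes are HTSeq 0.6.1p1, edgeR, SAMtools 1.3, TopHat2 2.1.0 and Bowtie2 2.2.6.0, and the builds mm10 and GRCm38. What each tool did, the annotation, the strand setting and the gene filter: not given in the sources used here. Each of the 15805 genes in the table exceeded 1 CPM in at least 4 libraries.

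Counts were scaled with TMM, filtered with filterByExpr (15675 genes kept) and tested with edgeR 4.0.16 in R 4.3.3 (quasi-likelihood, robust, group only), and p-values were adjusted over all these genes (Benjamini-Hochberg, threshold 0.05). RPKM is TMM-scaled CPM per kilobase of the union of GENCODE M21 exons. For correlations, log2 CPM had 2 added as prior count. The fit was tested on simulated data. Alternatives were DESeq2 1.42.0, limma 3.58.1 voom, other scalings and filters, a replicate block, each library left out and, chosen after seeing the data, 2 covariates and the loss of 2 libraries.

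The genes described and the lists of related genes were chosen with earlier results of these data known. Of each list, every called gene and up to 3 more of smallest p are named, and the 5 genes most and 5 least correlated with Ptprz1.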

Additional observations from a re-analysis of the deposited data

Results flagged for a closer look

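Ptprz1 in control 7 stood apart from the other 7 controls at 181 CPM, where the next highest was 105 CPM. The ratio of Ptn to Ptprz1 per length stood apart in control 6 at 6.62, and the ratio of Ptn to Mdk in control 3 at 1.67. Each was picked because its gap to the nearest sample passed Dixon's 95% critical value for 8 samples. Among 32 groups examined 3 were picked this way, and chance picks about 1 in 20 where values follow a normal distribution. The groups include ratios and shares built from the same genes, so they are not independent and that rate may not hold here.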

How the results depend on the processing

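Over 27 alternatives the log2 fold change of Ptprz1, described and not tested, ran from −1.77 to −1.48. Of the 8 genes 1 was called in the main test and 2 with DESeq2, the replicate block and the macrophage covariate, where Ptn joined. All genes called numbered 95, against 424 with DESeq2, 180 with a mean of at least 5 CPM in 1 group, 177 with the replicate block, 269 with the macrophage covariate and 22 with the Y-linked covariate. Leaving out 1 library gave 44 to 206. The count was over 1.5 times the 95 without blebbistatin 5 (180) or control 6 (206), and under 95 by that factor without blebbistatin 6 (49) or 8 (62) or control 1 (60), 2 (58), 4 (52), 7 (44) or 8 (54). Genes of the related lists called numbered 2, against 7 with DESeq2, 4 with the block, 4 with the macrophage covariate, 0 with the Y-linked covariate and 1 to 5 without 1 library. The sign of a small difference turned for Sdc4 (0.0026 with the 5 CPM filter, 0.022 without blebbistatin 1 and 8, −0.16 to 0.10 without 1 library), Sdc3 (0.077 without those 2, −0.25 to 0.030 without 1) and Mdk (−0.30 to 0.023 without 1), none of them called; the cause was not tested. Of 1072 log2 fold changes with an adjusted p 1023 kept their direction and their side of the threshold, and 3 more, from DESeq2, had none (Il34, Ptprt and Adamts15). The replicate block rests on numbers alone: same-numbered explants correlated at 0.0039 to 0.279, 4 of 8 pairs above 0.1. With the block Ptprz1 was −1.69 and Ptn 1.35 (adjusted p = 0.0217). The covariates and the loss of 2 libraries were chosen after seeing the data. All 8 genes passed the filter on low counts.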

Other observations

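The 2 related genes that fell, Hs6st2 and Gpc4, are neighbours on chromosome X, 371164 bases apart in GRCm38, with 2 protein-coding genes between them, Usp26 and 1700080O16Rik, that were not tested. Their pairing was seen in the data and the genes around them were chosen after that. The next gene, Gpc3, the glypican mutated in an overgrowth syndrome in humans, stood at 197 ± 60.9 CPM in treated explants and 138 ± 42.3 CPM in control explants (SD, n = 8 each; log2 fold change 0.51, edgeR adjusted p = 0.327). Mbnl3, a splicing factor on the other side, had 0.45 (adjusted p = 0.417). Stk26 (−0.02), Phf6 (0.12) and Hprt (0.17) were not called either.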
